A study of Andropogon gerardi with 36 samples.

Results

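RPL27A encodes a protein of the large subunit of the cytosolic ribosome. On the maize arrays studied here, 7 probes carried RPL27A as their single gene symbol (Entrez gene 542443). They were found by that symbol in the platform's annotation, as 1 of 583 symbols, out of 1800 probes with a single symbol and 19200 probes in all. RNA came from big bluestem (Andropogon gerardi), a prairie grass, grown in 12 plots under rainout shelters at the Konza Prairie in a study of warming and soil moisture. On each 2-colour array, RNA from 2 partner plots competed for the same probes. Plots 2 and 3 met on 8 arrays, plots 4 and 5 on 7, plots 6 and 9 on 8, plots 7 and 10 on 4, plots 11 and 12 on 4 and plots 13 and 15 on 3, which makes 34 arrays. By time they were 11 from June, 6 from the set named JulyA, 6 from JulyB and 11 from August. By subplot, 16 set subplot 1 against subplot 1, and 18 set subplots 2 or 4 against each other. The sources used here do not give the tissue, age or genotype of the plants, nor which plot or subplot had which treatment. Comparisons therefore run over plot pairs, times and subplots.

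Ribosomal proteins join ribosomal RNA in the nucleolus to form the subunits that translate messenger RNA. In plants each is usually encoded by several very similar genes. Their transcripts are abundant in growing tissue and tend to be regulated together, under the TOR kinase pathway that links nutrients to growth. The probe sequences were not used here, so which copies of the gene a probe binds in big bluestem is not known, and levels of different probes were not compared.

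Values are log2 ratios of the lower-numbered plot over the higher-numbered plot, with Cy5 over Cy3 assumed for the deposited ratio. That direction is unstated in the sources, so a sign compares arrays of a plot pair with each other and does not say which plot had more RNA. Between pairs, a shared sign rests on the plot numbers, which the sources tie to no treatment. The lower-numbered plot was in Cy3 on 5 arrays, 3 of plots 2 and 3 and 2 of plots 7 and 10. Between 2199 and 9530 probes had a value per array (median 5357), and array medians lay between -0.11 and 0.12. Nothing in the labels says that arrays of a pair came from separate plants, and plant codes recur between them, so errors describe the spread between these arrays.

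The RPL27A probes were measured often, but not alike. Of 238 possible values 170 were present. Probe 6457 had a value on 34 of 34 arrays, probe 9790 on 32, probe 10939 on 31 and probe 5078 on 28. Probe 2454 had 21, probe 4012 had 15 and probe 9661 had 9. On 3 arrays all 7 were measured, and every array had at least 2. The number of RPL27A probes with a value was 4.55 ± 1.04 on June arrays (SD, n = 11), 4.33 ± 1.03 on those of JulyA (n = 6), 4.67 ± 1.03 on those of JulyB (n = 6) and 6.0 ± 0.89 on those of August (n = 11). The number of all probes with a value was 4249 ± 1763, 4308 ± 667, 5146 ± 1374 and 7655 ± 1257 at the same times. The August gain was largest in probes 4012 and 2454, which were often missing in June and so had room to gain. Probe 4012 had a value on 9 of 11 August arrays and 1 of 11 June arrays, and probe 2454 on 10 of 11 August arrays and 6 of 11 June arrays. From June to August, probe 9661 went from 3 to 5 arrays and probes 5078 and 9790 from 9 to 11. Probe 6457 stayed at 11, and probe 10939 went from 11 to 9. Of the 7 probes, 5 were measured on a larger share of arrays in August than in June, or 71.4%. Over the 16216 probes measured on any array the share was 74.3%.

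**Figure D1:**
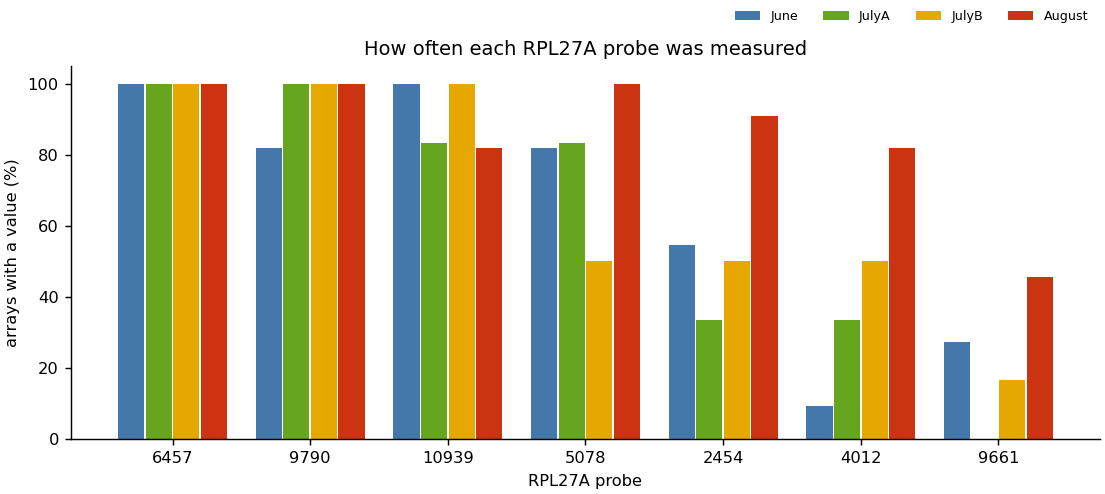
Bars give the percent of arrays of each sampling time (11 in June, 6 in JulyA, 6 in JulyB, 11 in August) on which each RPL27A probe, along the x axis, had a value. Probe 6457 was measured on every array, while probe 4012 had values on 9 August arrays and 1 June array.

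Probes 6457, 9790 and 10939 moved together from array to array. Probe 6457 ran from -1.25 to 0.57 with a median of -0.06. Probe 9790 ran from -0.74 to 0.32 with a median of -0.11, and probe 10939 from -0.79 to 0.44 with a median of 0.05. Across arrays, 6457 and 10939 had a Pearson r of 0.861 (Spearman rho 0.832, n = 31) and shared their sign on 28 arrays. The r of 6457 and 9790 was 0.649 (rho 0.729, n = 32), and that of 9790 and 10939 was 0.630 (rho 0.667, n = 29). Without the 2 arrays farthest from the median of the first-named probe these r were 0.790, 0.729 and 0.604. With deviations from each plot pair's mean they were 0.812, 0.555 and 0.547, and with the ratios as deposited 0.866, 0.644 and 0.622. Over all 1390278 pairs of the 1668 probes measured on most arrays the median r was 0.04, and 2.75% had an r of 0.6 or more. The points of these correlations share arrays, plants and hybridisations, so r is given as a description.

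The other probes were less closely tied to them. Probe 5078 ran from -0.93 to 1.37 with a median of -0.09, and its r with 6457 was -0.452 (rho -0.482, n = 28). Probe 2454 ran from -1.29 to 0.70 and had an r of 0.654 with 5078 (rho 0.705, n = 18) and of -0.224 with 6457 (n = 21). Probe 4012 ran from -1.33 to 1.02, with an r of 0.511 with 2454 (n = 10), of 0.05 with 5078 (n = 13) and of -0.07 with 6457 (n = 15). Within plot pairs the r of 2454 and 5078 was 0.536, that of 2454 and 4012 was -0.02 and that of 4012 and 5078 was -0.328. Without the 2 arrays farthest from the median of the first-named probe, 2454 and 4012 had 0.783, and as deposited 0.729. For 4012 and 5078 these values were -0.137 and 0.08. With 10 and 13 shared arrays spread over the pairs, whether 4012 moved with 2454 and 5078 within pairs is not settled. Of the 9 correlations between one of 6457, 9790 and 10939 and one of 2454, 4012 and 5078, 8 were below 0, from -0.452 to 0.09. With deviations from each plot pair's mean only 4 of the 9 were below 0, from -0.270 to 0.483, and that of 5078 and 6457 was the lowest. The SD over arrays was 0.375 for 6457, 0.304 for 9790 and 0.320 for 10939, against 0.557 for 5078, 0.565 for 2454 and 0.711 for 4012, with a median of 0.517 over the 1668 probes. Within an array the RPL27A probes had a median SD of 0.380, and on 26 of 34 arrays they lay on both sides of 0. Over all probes of an array, the median absolute deviation scaled to an SD ran from 0.31 to 0.81. The 0.380 lay toward the low end of that range.

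**Figure D2:**
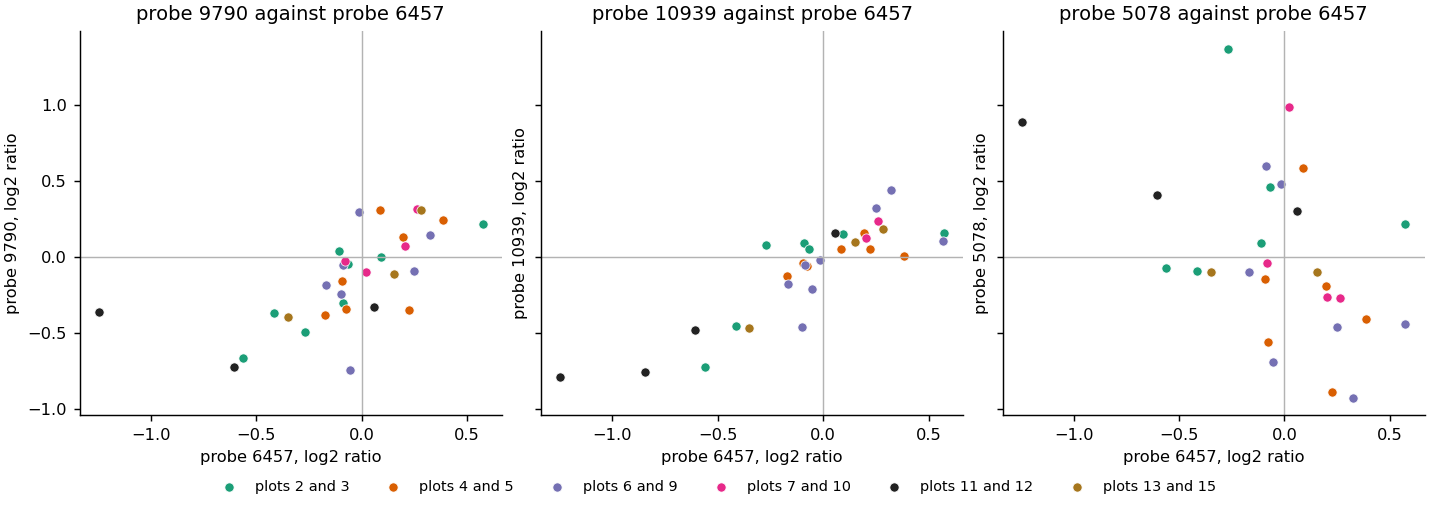
Each point is an array, with the log2 ratio of probe 6457 on the x axis and that of probe 9790, 10939 or 5078 on the y axis, coloured by plot pair. Probes 9790 and 10939 increase with 6457 (r 0.649 and 0.861), while probe 5078 has an r of -0.452 with it. With deviations from each plot pair's mean these r were 0.555, 0.812 and -0.270.

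The gap between the mean of 6457, 9790 and 10939 and the mean of 2454, 4012 and 5078 held its sign in some pairs only. That sign follows the plot numbers, so opposite signs in different pairs have no known meaning. The grouping was made after the values had been seen, and the second group was not shown to move as one, so the gap is described without a test. The second mean was a single probe on 12 of 33 arrays, among them 3 of 8 in plots 2 and 3 and 3 of 7 in plots 4 and 5. In plots 2 and 3 the mean of 6457, 9790 and 10939 was below the mean of 2454, 4012 and 5078 on 8 of 8 arrays, by a gap of -0.98 to -0.13 (mean -0.51 ± 0.38, SD). The gap was negative on the 5 arrays with plot 2 in Cy5, at -0.38 ± 0.34, and on the 3 with plot 2 in Cy3, at -0.73 ± 0.39. On 2 of those 3 arrays, both from JulyB, the second mean was probe 4012 alone. In plots 4 and 5 the gap was positive on 7 of 7 arrays, from 0.04 to 0.86 (mean 0.51 ± 0.33, SD). On the JulyA array of subplots 2 and 4 that sign rested on probe 4012. The second mean there joined 4012 at -0.40 and 5078 at 0.59, and the first mean, 0.15, lay below 5078. In plots 11 and 12 it was negative on the 3 arrays with both sets, from -1.69 to -0.59. Plots 6 and 9 had 5 positive gaps of 8, plots 7 and 10 had 2 of 4, and plots 13 and 15 had 2 of 3.

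Probe 9661 behaved in another way. Its ratio was below 0 as deposited on 9 of 9 arrays, from -0.95 to -0.37, with a mean of -0.62 ± 0.19 (SD, n = 9). Of the 1515 probes with values on 8 to 10 arrays, 1.06% were below 0 on all of them. The August arrays of plots 2 and 3 were run in opposite orientations, with plot 3 in Cy5 on the subplot 1 array and plot 2 in Cy5 on the other, and 9661 had -0.70 and -0.95 there as deposited. Probe 4012 was below 0 as deposited on 12 of 15 arrays, at -0.50 ± 0.55 (SD, n = 15). Of the 1694 probes with values on 13 to 17 arrays, 3.66% were below 0 on 80% or more of them. In plots 2 and 3 it had -1.12 on the JulyA array with plot 2 in Cy5, and 0.88 and 1.02 on the JulyB arrays with plot 2 in Cy3, which were -0.88 and -1.02 as deposited. In August it was near 0 in both orientations, at 0.05 with plot 2 in Cy3 (-0.05 as deposited) and 0.04 with plot 2 in Cy5. The part of the dyes in the values of 9661 and 4012 was not tested.

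**Figure D3:**
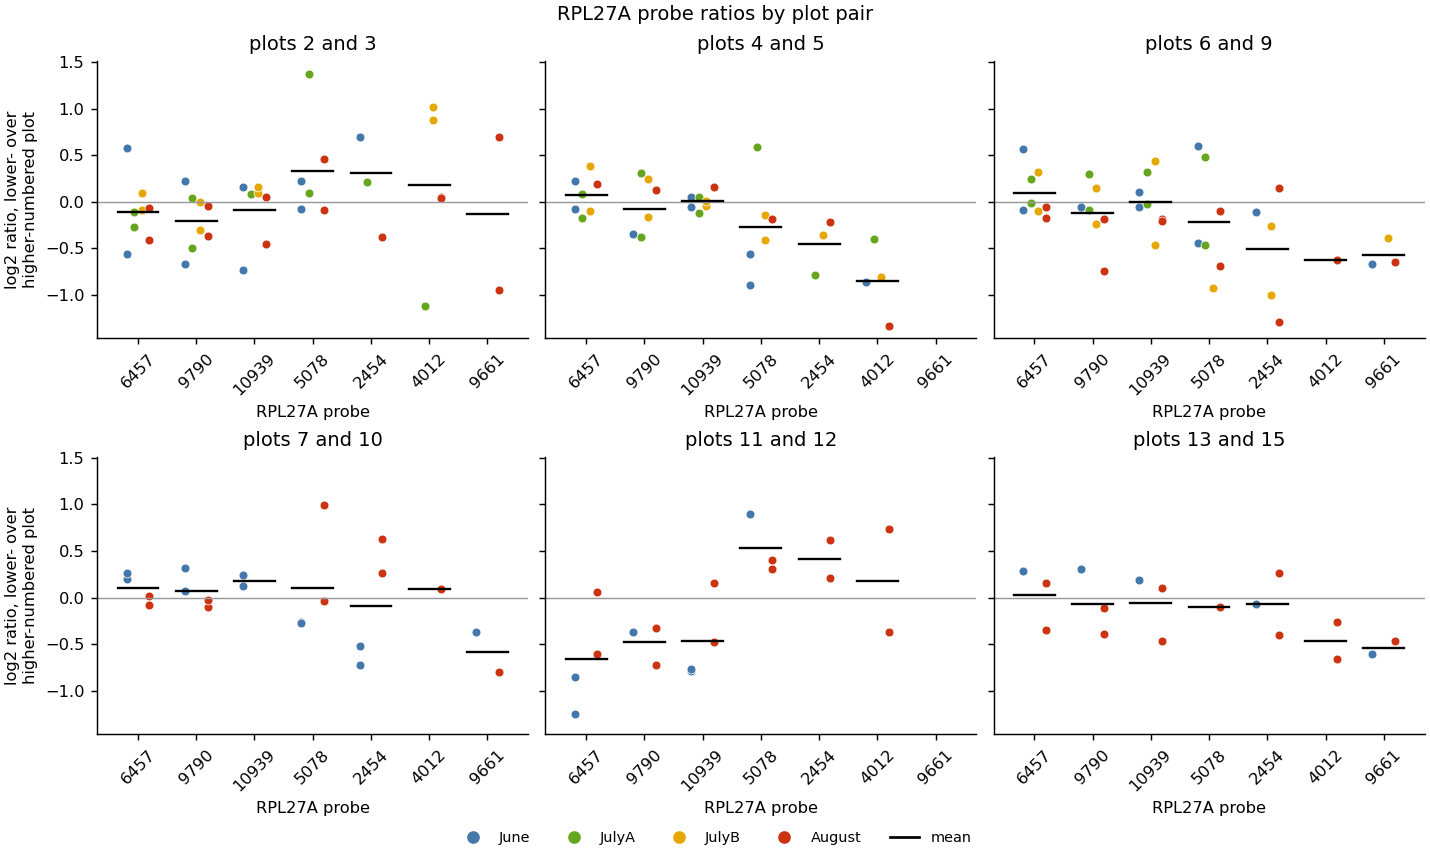
Points are log2 ratios of the lower- over the higher-numbered plot for each RPL27A probe (x axis) on each array, in 1 panel per plot pair, coloured by time, with black bars for means. In plots 11 and 12 the means of 6457, 9790 and 10939 lie at -0.66 to -0.47 while 5078 lies at 0.54, and in plots 4 and 5 probe 4012 lies lowest at -0.85.

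The first question was whether RPL27A transcripts differed between partner plots. In RNA of whole samples, fewer cells of a type and less RNA per cell cannot be told apart. The clearest values were those of plots 11 and 12. The June arrays of this pair had the fewest probes with a value of all arrays, 2199 on subplot 1 and 2516 on subplot 2. The subplot 2 array also had the highest array median, 0.12. Probe 6457 had -1.25 and -0.85 on the June arrays of subplots 1 and 2, and -0.61 and 0.06 on the August arrays. Probe 10939 had -0.79 and -0.76 in June and -0.48 and 0.16 in August. Probe 9790 had -0.36 on the June array of subplot 1 and -0.72 and -0.33 in August. Thus 3 arrays were below 0 with every one of these probes measured there, while the August array of subplot 2 had 9790 below 0 and the other two above. Probe 5078 had 0.89 on the June array of subplot 1 and 0.41 and 0.30 in August, on the other side of 0. Probe 2454 had 0.21 and 0.62 in August, and probe 4012 had -0.37 and 0.73.

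The limma fit over all 1668 probes estimated 1 coefficient per plot pair and a dye effect, with arrays of 1 pair and subplot class as a random block. Of the RPL27A probes, 4 had enough values to enter it. Of these, 0 were called at an adjusted p under 0.05 in the F test over the 6 pairs, where 0% of all probes were called. At an unadjusted p under 0.05 it was 1 of 4, probe 6457, against 7.37% of all probes. In plots 11 and 12 the coefficient was -0.67 ± 0.21 (SE) for 6457, -0.48 ± 0.22 for 9790 and -0.46 ± 0.21 for 10939, with limma adjusted p of 0.186, 0.572 and 0.546. The median size of a coefficient in that pair was 0.26 over all probes. For 5078 it was 0.54 ± 0.35 (limma adjusted p = 0.737). No RPL27A probe was called there, and 0% of all probes were, while 3 of 4 had an unadjusted p under 0.05, against 8.09%. The 3 move together across arrays and are not separate observations.

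The call for probe 6457 in plots 11 and 12 turned on the fit. Its limma adjusted p was 0.0327 with the ratios as deposited and no dye term, where 2.64% of probes were called. It was 0.0390 with turned ratios and no dye term (1.86% called) and 0.0127 over the 104 probes measured on all arrays (27.9% called). Without the August array of subplot 2 it was 0.00607, with a coefficient of -0.91 ± 0.21 (6.03% called). Leaving out another array of the pair gave no call. The coefficient was -0.48 ± 0.22 without the June array of subplot 1 (limma adjusted p = 0.9999), -0.62 ± 0.24 without the June array of subplot 2 (0.779) and -0.68 ± 0.23 without the August array of subplot 1 (0.426). As deposited, with neither dye term nor block, it was 0.0540 (0.839% called). All 4 arrays of this pair had plot 11 in Cy5, so dye and plot cannot be told apart in a fit with no dye term.

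In the other pairs the coefficients of the 4 probes stayed between -0.26 and 0.33, with SEs of 0.11 to 0.42, and 0 of 4 were called in each, with 0% of all probes. None had an unadjusted p under 0.05 either. The share of all probes with such a p was 4.56% for plots 2 and 3 and ran to 7.73% for plots 4 and 5, with 7.01% for plots 6 and 9. It was lowest, at 0.959%, for plots 7 and 10, and stood at 4.74% for plots 13 and 15. In plots 4 and 5 probe 6457 had -0.08 in June on the subplot 1 array and 0.22 on the other, then -0.17 and 0.09 (JulyA), -0.09 and 0.39 (JulyB), and 0.19 on the August array of subplot 2 or 4. Its values lay on both sides of 0 at each time with a pair of arrays. Probe 4012, below the minimum for the fit, had -0.86 (June), -0.40 (JulyA), -0.81 (JulyB) and -1.33 (August), all below 0. Probe 2454 had -0.78 in JulyA, -0.36 in JulyB and -0.22 in August. Probe 5078 was below 0 on 5 of 6 arrays and had 0.59 on a JulyA array. Probe 9661 had no value in plots 4 and 5 or in plots 11 and 12.

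As a mean over the measured probes, RPL27A had its lowest value in plots 11 and 12, -0.30 ± 0.44 (SD, n = 4). Plots 4 and 5 followed with -0.19 ± 0.17 (n = 7), then plots 6 and 9 with -0.15 ± 0.24 (n = 8) and plots 13 and 15 with -0.14 ± 0.14 (n = 3). Plots 7 and 10 had 0.03 ± 0.24 (n = 4) and plots 2 and 3 had 0.04 ± 0.22 (n = 8). This order takes its signs from the plot numbers, so it has no known meaning between pairs. Neighbours in it differed by less than the smaller of their SDs, except plots 13 and 15 and plots 7 and 10, whose gap was 0.17. As deposited the mean was -0.16 ± 0.16 in plots 7 and 10, with 4 of 4 arrays below 0, and -0.04 ± 0.22 in plots 2 and 3. The means were given no test, since the gene was chosen with results of these data known.

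The mean hid the split between probes. Over 6457, 9790 and 10939 alone it was 0.00 ± 0.17 in plots 4 and 5 (SD, n = 7) and 0.01 ± 0.26 in plots 6 and 9 (n = 8). In plots 11 and 12 it was -0.56 ± 0.36 and below 0 on 4 of 4 arrays, and in plots 2 and 3 it was -0.13 ± 0.30 (n = 8). Arrays that shared a plant code were also grouped. This left 2 groups for plots 11 and 12 and 2 for plots 2 and 3. It left 4 for plots 4 and 5 and 3 for plots 6 and 9. With the 7 probes averaged into 1 feature before the fit, RPL27A had -0.21 ± 0.17 (SE) in plots 11 and 12 and -0.10 ± 0.14 in plots 4 and 5 (limma adjusted p = 0.902 and 0.884 over 1359 features).

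**Figure D4:**
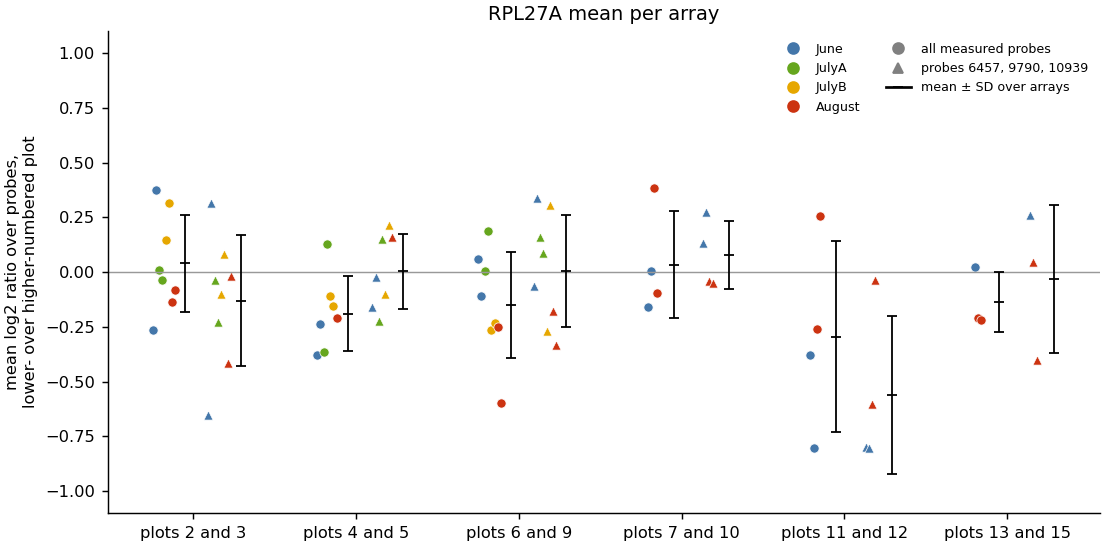
Each circle is the mean log2 ratio over all measured RPL27A probes of an array and each triangle the mean over probes 6457, 9790 and 10939, coloured by time, with mean ± SD over arrays in black. The circles of plots 4 and 5 average -0.19 and the triangles 0.00, while in plots 11 and 12 the triangles average -0.56.

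The next question was whether the plot difference changed over the season. The RPL27A mean was -0.17 ± 0.30 over the 11 June arrays (SD) and -0.01 ± 0.19 over the 6 of JulyA. It was -0.05 ± 0.23 over the 6 of JulyB and -0.13 ± 0.26 over the 11 of August, but June and August hold 6 plot pairs and the July times 3. Over the 3 pairs sampled at every time it was -0.09 ± 0.27 in June (n = 6), -0.01 ± 0.19 for JulyA (n = 6), -0.05 ± 0.23 for JulyB (n = 6) and -0.25 ± 0.20 for August (n = 5). All 5 of these August arrays were below 0, and their range of -0.60 to -0.08 overlapped that of each other time. Signs pooled over pairs rest on the plot numbers here too. In plots 2 and 3 probe 6457 had, with the subplot 1 array first, -0.56 and 0.57 (June), -0.11 and -0.27 (JulyA), -0.09 and 0.09 (JulyB), and -0.41 and -0.07 (August). In plots 6 and 9 it had -0.09 and 0.57 (June), 0.25 and -0.01 (JulyA), -0.10 and 0.32 (JulyB), and -0.17 and -0.05 (August). In both pairs the widest gap was between the June arrays.

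Probes 6457 and 9790 could be tested over the 4 times in a fit with a mean for every combination of pair and time. Limma called 0 of these 2 (adjusted p = 0.985 for both), with 0% of the 1078 probes tested. At an unadjusted p under 0.05 it was again 0 of 2, against 7.7% of all probes. For August against June the limma adjusted p was 0.997 for both, with 0% of probes called. There too 0 of 2 had an unadjusted p under 0.05, against 4.82%. The largest August minus June coefficient of 6457 was 0.77 ± 0.39 (SE) in plots 11 and 12 (limma adjusted p = 0.653). Its mean over the 6 pairs was -0.05 ± 0.17, and that of 9790 was -0.14 ± 0.18.

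The last comparison set arrays of subplot 1 against arrays of subplots 2 and 4. No array set subplots of a plot against each other. In plots 4 and 5 probe 6457 lay at -0.17, -0.09 and -0.08 on the subplot 1 arrays, and at 0.09, 0.19, 0.22 and 0.39 on the others, with no overlap. Probe 10939 lay at -0.12 to -0.04 on the subplot 1 arrays and at 0.01 to 0.16 on the others. Of the 3 RPL27A probes measured on all 7 arrays of that pair, these 2 were below the others throughout on subplot 1, against 5.9% of 983 probes. In plots 2 and 3 and in plots 6 and 9, 0 of 2 did so, against 1.03% and 1.57% of all probes. The remaining pairs have 3 or 4 arrays, and more probes split there. It was 0 of 4 RPL27A probes in plots 7 and 10 against 13.9%, 0 of 2 in plots 11 and 12 against 23.9%, and 1 of 4 (probe 2454) in plots 13 and 15 against 26.3%.

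Counts and means over several plot pairs take their sign from the plot numbers, so a shared direction between pairs has no known meaning. Set against the partner array of the same pair and time, probe 6457 was lower on the subplot 1 array in 12 of 16 cases, by a mean of -0.25 ± 0.40 (SD, n = 16). Probe 10939 was lower in 11 of 14, at -0.19 ± 0.42, and probe 9790 in 10 of 14, at -0.20 ± 0.42. The single case of plots 13 and 15 went the other way with all of these, at 0.50, 0.57 and 0.28. Probe 5078 was lower in 4 of 12, at 0.03 ± 0.71, probe 2454 in 3 of 7, at 0.18 ± 0.73, and probe 4012 in 3 of 4, at -0.40 ± 0.50. Over all measured probes the RPL27A mean was lower in 9 of 16, at -0.05 ± 0.32, less than its spread. That mean was -0.14 ± 0.21 on the 16 subplot 1 arrays and -0.08 ± 0.30 on the 18 others.

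In the limma fit with a subplot difference for each pair, 0 of 4 RPL27A probes were called, with 0% of 1583 probes. At an unadjusted p under 0.05 it was also 0 of 4, against 2.65%. The per-pair differences of 6457 ran from -0.53 ± 0.35 (SE) in plots 11 and 12 to 0.19 ± 0.43 in plots 13 and 15, and those of 10939 from -0.59 ± 0.30 in plots 2 and 3 to 0.24 ± 0.43 in plots 13 and 15. A fit with 1 common subplot coefficient, whose sign also follows the plot numbers, was added after the values had been seen. It gave -0.26 ± 0.12 (SE) for 6457, -0.20 ± 0.12 for 9790, -0.22 ± 0.12 for 10939 and 0.03 ± 0.21 for 5078. The limma adjusted p was 0.820, 0.842, 0.842 and 0.991 in that order, and 0% of 1668 probes were called. Unadjusted, 1 of 4 (6457) had p under 0.05, against 5.64% of all probes. As deposited the coefficient was -0.16 ± 0.12 for 6457, -0.06 ± 0.13 for 9790, -0.11 ± 0.13 for 10939 and -0.14 ± 0.19 for 5078 (limma adjusted p of 0.941 to 0.948).

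**Figure D5:**
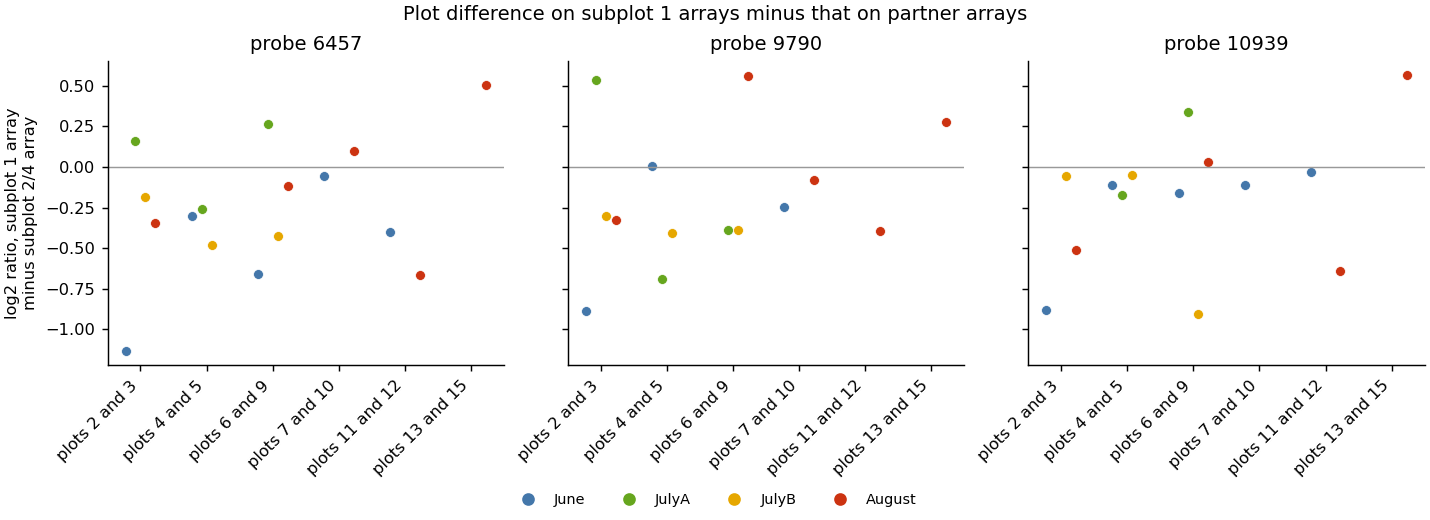
Points are the log2 ratio on a subplot 1 array minus that on the subplot 2 or 4 array of the same plot pair and time, for probes 6457, 9790 and 10939, coloured by time. For probe 6457, 12 of 16 points lie below 0, and the single point of plots 13 and 15 lies at 0.50.

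No other gene could be recognised by its symbol as one of the ribosome or of translation. A list of symbol patterns for ribosomal proteins, initiation and elongation factors and poly(A)-binding proteins matched 1 symbol in the annotation, RPL27A itself. Of the 583 symbols 539 are locus numbers, which such patterns cannot read. Among 193 symbols measured with RPL27A on at least 20 arrays, the most alike by Pearson r of the means were LOC732821 (r 0.524, 27 arrays), LOC732796 (0.513, 21), LOC541649 (0.468, 33), LOC542764 (0.423, 27) and LOC606410 (0.418, 22). The median over the 193 was -0.01. As deposited, the r of these symbols were 0.491, 0.605, 0.348, 0.262 and 0.182 in the same order. With the mean of 6457, 9790 and 10939 in place of the whole, these r were 0.275, -0.05, 0.216, 0.461 and 0.348, so the order rests on which probes stand for the gene.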

How the data were processed

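Per the labels' protocols, RNA was isolated with RNeasy reagents and dye-labelled with a Genisphere kit. The deposited table held log10 ratios within each array, a unit settled from the values: on each array 82.3% to 99.1% of them gave, as powers of 10, fractions of integers with denominators no larger than 1000 (tolerance 6e-10), and at most 0.0200% did so after a small shift. The sources used here do not name the scanner, background correction, normalization or filters. Plot, subplot, letter and time were read from the array titles. Of 36 arrays, 1 had an empty column and 1 had the same code in both channels; both stayed outside the comparisons.

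Values were converted to log2 and oriented as lower- over higher-numbered plot. Linear models used limma 3.58.1 in R 4.3.3, with the random block from duplicateCorrelation (statmod). Each probe's own arrays gave its covariance, variances were moderated, and p-values were adjusted by Benjamini-Hochberg over all probes tested. A probe entered with values on 28 or more arrays, 2 or more in every pair, and for the time and subplot fits all coefficients had to be estimable. The subplot fit had no block. Probe means needed at least 2 measured probes on an array. Alternatives were the ratios as deposited, no dye term, no random block, other filters on missing values, arrays centred on their median or scaled to 1 spread, a block of pair and time, probes averaged by gene symbol, and leaving out each probe or array. The fits were also run on simulated ratios with independent errors, which held no block correlation and no dye effect. Those runs cannot show how the fits handle either. Figures were drawn with matplotlib.

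All 7 RPL27A probes were named, with the 5 symbols most like their mean. The gene, the lists and the tests were chosen with earlier results of these data known. The arrays' number limits the precision, and the deposited values give no signal over background.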

Additional observations from a re-analysis of the deposited data

Results flagged for a closer look

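In plots 4 and 5, probe 6457 was below 0 on every subplot 1 array, at a mean of -0.11, and above 0 on every array of subplots 2 and 4, at a mean of 0.22. The difference was -0.34 over 7 arrays. Probe 10939 had the same pattern there, with means of -0.07 and 0.07 and a difference of -0.14. Of the 983 probes measured on all 7 arrays of the pair, 58 (5.9%) lay lower on subplot 1 with no overlap, and 6 lay higher. For this pair alone the limma fit of the subplot difference gave -0.34 ± 0.27 (SE) for 6457 and -0.14 ± 0.27 for 10939, with an adjusted p of 0.9997 for both, so neither difference passed a test. These 2 probes move together across arrays. No array stood apart by Dixon's criterion in the 27 sets of 4 to 10 RPL27A values that were examined.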

How the results depend on the processing

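The count of RPL27A probes called was 0 under each alternative run for the plot difference over the 6 pairs, the 4 times, August against June, and the subplots, and when any 1 array was left out. For single pairs it was 0 in the fit reported and 1 (probe 6457 in plots 11 and 12) in 3 alternatives: ratios as deposited without dye term, turned ratios without dye term, and probes measured on all arrays. Leaving out 1 array gave 0 to 1, with 1 only without the August array of subplot 2 in plots 11 and 12. The adjusted p of that coefficient ran from 0.0127 to 0.721 over the other alternatives, and from 0.00607 to 0.9999 when 1 array was left out. Of 84 alternative pair means, 83 moved by less than the SD over arrays. The exception was plots 4 and 5, whose mean was 0.0029 over probes 6457, 9790 and 10939, a choice made after the values had been seen. In every other pair the SD exceeded the size of the mean, so a mean could change sign and still be counted among the 83. Signs did change under an alternative in plots 2 and 3 (to -0.13), plots 6 and 9 (to 0.006), plots 7 and 10 (to -0.16) and plots 11 and 12. The count therefore says little about how steady the means were. In plots 11 and 12 the mean was 0.01 without probe 6457 and -0.06 without 10939, each over 3 arrays, since the June array of subplot 2 had only these 2 probes. Leaving out 1 array moved it between -0.48 (without the August array of subplot 2) and -0.13 (without the June array of subplot 2) there. The number of RPL27A probes measured at each time moved by less than its SD in the 3 pairs sampled at all 4 times. Only 2 of the 7 probes could be tested over time, and no replicate numbers in the labels pair the arrays.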

Other observations

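The array labelled with 1 plant code in both channels carried values for all 7 RPL27A probes, as deposited and against an array median of -0.40. Probe 9661 had the lowest, -2.19, and probe 4012 the next, -1.34. The remaining probes were 2454 at 0.07, 6457 at -0.33, 5078 and 10939 at -0.51 and 9790 at -0.54. On that array 18.9% of all measured probes lay at or below 9661, and 29.6% at or below 4012. Probes 9661 and 4012 were also those whose deposited ratios lay below 0 on 9 of 9 and 12 of 15 of the arrays with 2 plots. The array belongs to no plot pair and entered no comparison.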
